A study of Homo sapiens with 6 samples.

Results

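Histone genes were taken as every gene of the deposited GAPDH peak lists whose symbol is that of an H1, H2A, H2B, H3 or H4 histone. They accounted for 30 of 1316 peaks and for 21 of the 947 genes in the lists. The peaks came from CLIP-seq, in which RNA crosslinked by ultraviolet light to GAPDH, an enzyme of glycolysis, was pulled down with an antibody, trimmed with RNase T1 and sequenced. MOLM-13, a human acute myeloid leukaemia cell line, was cultured for 24 h with 11 mM galactose, 5 mM glucose (low glucose) or 11 mM glucose (normal glucose), as the study's methods state. Each condition had 2 samples, which the authors joined into a single list, so every value below describes 1 list per condition, without a spread between samples and without a test. The lists hold positions and gene names only. The depth is therefore unknown, exact 95% intervals cover counting error over peaks or genes only, and more of an mRNA in the cell cannot be told apart from more GAPDH on it.

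Histones package DNA. H2A, H2B, H3 and H4 form the nucleosome core and the linker histone H1 binds where DNA enters and leaves it. Most histone genes lie in clusters and are transcribed for DNA replication, and their short mRNAs have no introns and end in a conserved stem-loop, bound by the protein SLBP, in place of a poly(A) tail. Replacement variants such as H3.3, encoded by H3-3A, are made throughout the cell cycle from polyadenylated mRNAs.

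Of the 21 histone genes with a peak, 18 lay on chromosome 6 with 26 of the 30 peaks. The first cluster held 14 peaks in 9 genes between 26027154 and 26273164 (hg38), and the second held 12 peaks in 9 genes between 27132990 and 27893840. H3C13 and H3-3A lie on chromosome 1 and H2AJ on chromosome 12. In 20 of the 21 genes the mRNA, taken as the canonical transcript of the annotation, has a single exon. H2AJ, H2BC4, H2BC6, H2BC15 and H3C10 among them have other transcripts as well. The stem-loop was searched as its 16-nt consensus on the gene strand in the last 100 nt of the mRNA, and 17 of the 21 genes held a match (81%, interval 58.1 to 94.6). The same held for 67 of 93 annotated coding histone genes (72%, 61.8 to 80.9) and for 1 of 19953 other coding genes. The matches took 5 forms, shown here because they mark the histone mRNA end that the peaks are measured against, each beside the genes that carry it.
12 of the genes: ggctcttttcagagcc
H2BC4 and H3C8: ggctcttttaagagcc
H2AC11: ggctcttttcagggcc
H4C2: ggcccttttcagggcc
H4C9: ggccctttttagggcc
No match was found in that window in H2AJ, H2BC10, H3-3A and H4C13, of which H3-3A and H2AJ encode replacement variants.

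Histone peaks were most numerous in the normal glucose list. That list held 17 histone peaks in 15 genes, against 8 peaks in as many genes for low glucose and 5 peaks in 4 genes for galactose. They made up 3.43% of the 495 peaks with normal glucose (2.01 to 5.44), 1.65% of the 484 with low glucose (0.716 to 3.23) and 1.48% of the 337 with galactose (0.483 to 3.43). The 3 intervals overlap. Ribosomal protein genes are another family with short and abundant mRNAs. They held 11.5% of the peaks with normal glucose (8.84 to 14.7), 13.6% with low glucose (10.7 to 17) and 11.3% with galactose (8.1 to 15.1). Histones had their highest share in normal glucose and ribosomal protein genes in low glucose. In both families the intervals of the lists overlap, so no difference between the lists is shown for either family.

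Counted over the 93 annotated coding histone genes, 4.3% (1.18 to 10.6) had a peak in galactose, against 1.10% of all 20046 coding genes. In low glucose it was 8.6% (3.79 to 16.2) against 1.54%, and in normal glucose 16.1% (9.32 to 25.2) against 1.38%. Over the lists together it was 22.6% (14.6 to 32.4) against 2.79%. The histone share was above that of all coding genes in each list, but histone genes differ from the average gene in expression and length, and the part of either in this was not tested. None of the 33 pseudogenes and non-coding genes with a histone symbol had a peak. The share of all pseudogenes and non-coding genes with a peak was not counted. Beside the 2.79% of coding genes, a count of 0 among 33 says little.

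The count in normal glucose rested on single-site peaks with a G just before the crosslink site, the base after which RNase T1 cuts. A peak made from 1 crosslink site is 101 nt wide with the site in its middle, and 22 histone peaks are of this kind. The base before the middle, read on the strand of the gene, was a G in 12 of 14 such peaks with normal glucose (85.7%, 57.2 to 98.2) but in 1 of 4 with low glucose and 1 of 4 with galactose. Other coding genes, here and below those outside the histone, ribosomal protein and abundant cytoskeletal genes, had the same rise in their exonic peaks, with a G in 64% of single-site peaks for normal glucose, 29% for low glucose and 25% for galactose. Ribosomal protein genes had 71.1%, 17.9% and 9.09% in that order. Read on the opposite strand, a G came before the middle in 3 of the 22 histone peaks. When single-site peaks with this G were left out, 5 histone genes remained for normal glucose, 7 for low glucose and 4 for galactose, and the share of all coding genes with a peak was 0.943%, 1.34% and 0.968% in that order. The higher count of histone genes in normal glucose was therefore not seen without these peaks, and what part RNase T1 had in it was not tested.

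**Figure D1:**
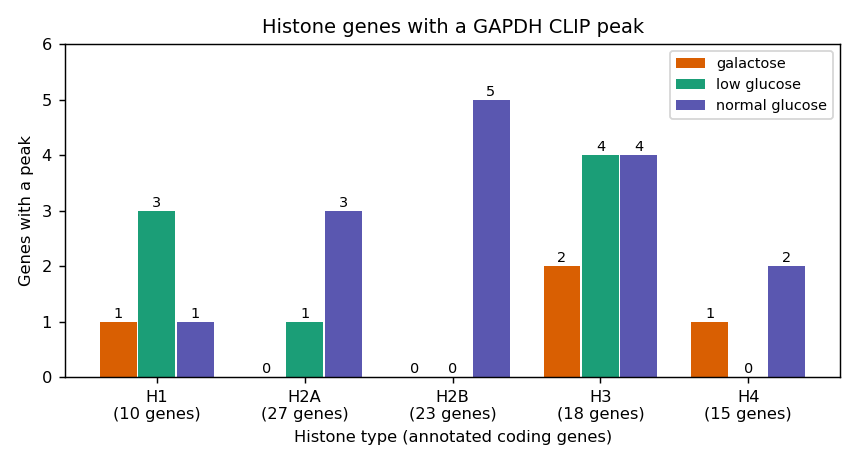
Number of histone genes with at least 1 GAPDH CLIP peak (y axis) by histone type (x axis, with the number of annotated coding genes of each type) in the galactose, low glucose and normal glucose lists. H2B genes had peaks in normal glucose only (5 of 23), and H1 genes had most in low glucose (3 of 10).

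The histone types were spread unequally over the lists, in small numbers. H1 genes with a peak numbered 1, 3 and 1 of 10 in galactose, low and normal glucose, H2A genes 0, 1 and 3 of 27, and H2B genes 0, 0 and 5 of 23. H3 genes numbered 2, 4 and 4 of 18, and H4 genes 1, 0 and 2 of 15. H3 was the type with the largest share of its genes in any list, 7 of 18 (38.9%, 17.3 to 64.3). A count of 0 of 23 H2B genes allows a share of up to 14.8%, which overlaps the interval of the 5 of 23 in normal glucose (21.7%, 7.46 to 43.7).

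The linker histone genes H1-2, H1-4 and H1-5 held 6 peaks, and in galactose and low glucose all 4 of them spanned the start codon. H1-2 had a 171-nt peak in galactose (chr6:26056317-26056487, minus strand) that ran from before the mRNA into codon 38. In low glucose a 120-nt peak on the same gene (chr6:26056321-26056440) covered codons 1 to 36, lay wholly inside the galactose peak and had its middle 21 nt away. H1-2 had no peak in normal glucose. H1-5 had a single peak, the widest of all at 187 nt, in low glucose (chr6:27867346-27867532, minus strand), over codons 1 to 62. H1-4 had a 102-nt peak over codons 1 to 29 in low glucose (chr6:26156374-26156475, plus strand). In normal glucose H1-4 had peaks at chr6:26156510-26156610 and chr6:26156623-26156723 instead, with middles in codons 57 and 95, which began 34 nt and 147 nt past the end of the low glucose peak. H1-4 was thus met in both glucose lists at different places of its coding sequence. The coding bases that the H1-2 peaks of galactose and low glucose share are given with the start codon in capitals (chr6:26056321-26056428, minus strand), above the coding bases under the low glucose peak of H1-4 (chr6:26156391-26156475), since both begin with the same amino-terminal stretch.
H1-2: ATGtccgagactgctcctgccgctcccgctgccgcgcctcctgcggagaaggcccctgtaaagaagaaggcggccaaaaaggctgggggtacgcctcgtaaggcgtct
H1-4: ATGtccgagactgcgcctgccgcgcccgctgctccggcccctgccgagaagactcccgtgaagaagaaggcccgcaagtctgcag

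H3 genes held 11 peaks and were the only type with peaks in several genes of every list. H3-3A was met at the 5' end of its mRNA in galactose (chr1:226062673-226062773, plus strand) and, with an end in common and 1 nt more at the start, in low glucose (chr1:226062672-226062773). The middles lay at bases 8 and 7 of the canonical mRNA, in the 5'UTR and 112 and 113 nt before the start codon. The annotated gene, which has 10 transcripts, begins farther upstream. H3-3A was absent from the normal glucose list. H3C4, a replication-dependent gene, had peaks in galactose at chr6:26196981-26197081 and chr6:26197136-26197236 (minus strand), with middles in codons 74 and 22. Its low glucose peak (chr6:26197017-26197117) had its middle in codon 62, overlapped the first of these over 65 nt and lay 18 nt from the other. The 3 H3C4 peaks were also annotated to a read-through gene, and without peaks of more than 1 gene the galactose list held 3 histone peaks. H3C10 had a low glucose peak over codons 20 to 53 (chr6:27810131-27810231, plus strand) and a 173-nt normal glucose peak over codons 1 to 44 (chr6:27810032-27810204), with 74 nt in common and middles 63 nt apart.

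H3C11 was in the low glucose list only, with a peak over codons 1 to 22 (chr6:27872251-27872351, minus strand). H3C3 (chr6:26045574-26045674, plus strand), H3C8 (chr6:26271185-26271285, minus strand) and H3C13 (chr1:149813463-149813622, minus strand) were in the normal glucose list only, with middles in codons 72, 50 and 47. The middles of the 9 H3 peaks in coding sequence lay between codons 5 and 74, so none reached the last part of the reading frame. The 3 H3 sites met by more than 1 list are given as the coding bases in common for H3C4 (chr6:26197017-26197081, minus strand) and H3C10 (chr6:27810131-27810204, plus strand), and for H3-3A as the 21 bases around the galactose site (chr1:226062713-226062733, plus strand) with the middle and the base before it in capitals.
H3C4: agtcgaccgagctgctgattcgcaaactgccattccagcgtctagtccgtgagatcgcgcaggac
H3C10: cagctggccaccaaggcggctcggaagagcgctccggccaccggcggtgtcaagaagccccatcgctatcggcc
H3-3A: catctttcaATtgtgttcgca

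H2B genes had peaks in normal glucose alone, 6 in 5 genes, and 5 of the 6 were single-site peaks with a G before the middle. H2BC10 (chr6:26273064-26273164, plus strand) and H2BC15 (chr6:27838750-27838850, plus strand) had peaks over the same codons 30 to 63 with the same middle codon 47. These peaks differ at 5 of 101 bases, in capitals below, and share 18 of their 72 30-mers, so that a read from the identical stretches could have come from either gene.
H2BC10: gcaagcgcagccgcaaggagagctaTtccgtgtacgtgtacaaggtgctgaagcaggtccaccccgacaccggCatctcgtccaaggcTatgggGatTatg
H2BC15: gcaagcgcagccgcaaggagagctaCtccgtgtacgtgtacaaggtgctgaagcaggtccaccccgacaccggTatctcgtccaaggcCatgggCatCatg
The second peak of H2BC15 (chr6:27838951-27839051) and that of H2BC17 (chr6:27893740-27893840, plus strand) had middles in codons 114 and 110 and covered codons 97 to 126 in common, where the genes are 94.4% identical. H2BC4 had its peak at chr6:26123640-26123740 (minus strand), with the middle in codon 72. H2BC6 was the exception, with a peak at the 5' end (chr6:26183742-26183842, plus strand), the middle 4 nt before the start codon and an A before it.

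H2A genes held 4 peaks. H2AC11 was met in low glucose within its coding sequence (chr6:27133131-27133231, plus strand, middle in codon 37) and in normal glucose at its 5' end (chr6:27132990-27133090), where the middle lay 3 nt before the annotated gene. These peaks were 40 nt apart. H2AC16 had a normal glucose peak with its middle in codon 70 (chr6:27865513-27865613, plus strand). H2AJ, a replacement variant, had one in codon 122 (chr12:14774785-14774885, plus strand) that ran over the stop codon.

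H4 genes held 3 peaks in 3 genes, each in a single list. H4C2 in galactose had its peak over codons 1 to 33 (chr6:26027154-26027254, minus strand). H4C13 in normal glucose had its middle in codon 39 (chr6:27873345-27873445, minus strand). H4C9 in normal glucose had a 164-nt peak (chr6:27139509-27139672, plus strand) from codon 67 through the stop codon and 52 nt of 3'UTR. It was the one peak among 25 on genes with a stem-loop match that covered the stem-loop (chr6:27139654-27139669). The peaks nearest to it in this respect ended 29 nt before the stem-loop in H2BC17 and 38 nt before it in H2BC15, and the others ended 152 to 619 nt before theirs.

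**Figure D2:**
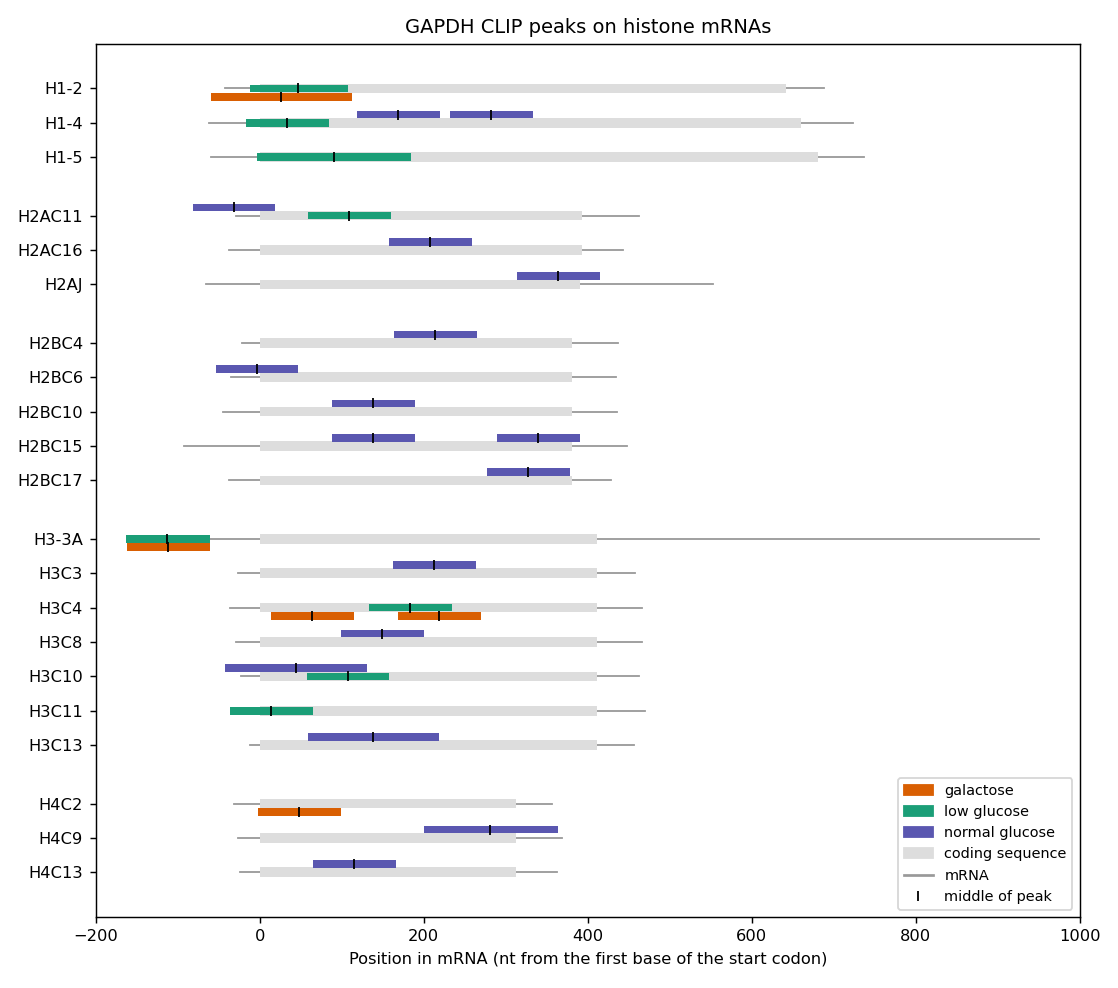
Every histone peak drawn to scale on the mRNA of its gene (x axis, nt from the first base of the start codon; a row for each of the 21 genes), with galactose peaks below the gene, low glucose peaks on it and normal glucose peaks above it. Black ticks mark peak middles, and 9 of the 30 peaks cross the start codon while 3 cross the stop codon.

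Histone peaks lay mostly in coding sequence. The middle was in coding sequence for 4 of 5 galactose peaks, 7 of 8 low glucose peaks and 15 of 17 normal glucose peaks, or 26 of 30 in all (86.7%, 69.3 to 96.2). It was in the 5'UTR, or at the 5' end, in the other 4 (13.3%, 3.76 to 30.7) and in the 3'UTR in none, which allows a share of up to 11.6%. Exonic peaks of ribosomal protein genes had their middle in coding sequence in 67.7% of 127 (58.8 to 75.7), and those of other coding genes in 45.9% of 329 (40.4 to 51.4), with 43.2% in the 5'UTR and 10.9% in the 3'UTR. Over the lists together, the histone interval lies above that of other coding genes and overlaps that of ribosomal protein genes. The lists enter these sums with different weights, and within each list the histone interval overlaps that of other coding genes (63.6 to 98.5 against 44.3 to 64 in normal glucose, where histone peaks were most numerous). Histone mRNAs have short UTRs, and the part of this in the share was not tested. By extent, 16 histone peaks lay wholly in coding sequence, 9 crossed the start codon, 3 crossed the stop codon and 2, both on H3-3A, held no coding base. No histone peak had its middle in an intron, against 374 of 764 pairs of a peak and one of the other coding genes. The canonical mRNA of 20 of the 21 histone genes has a single exon, so gene structure largely fixed this count in advance.

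**Figure D3:**
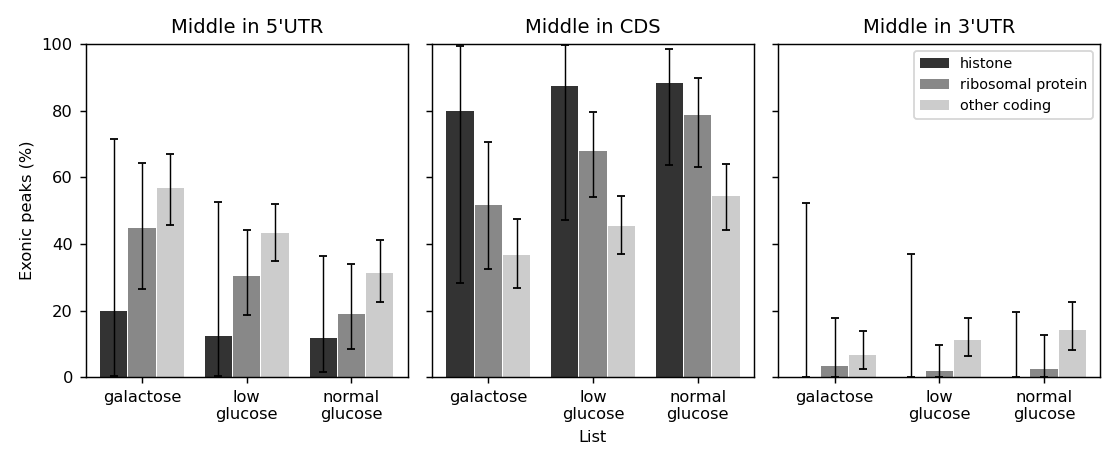
Share of exonic peaks (y axis, %) with the middle in coding sequence, 5'UTR or 3'UTR (panels), for histone, ribosomal protein and other coding genes in each list (x axis), with exact 95% intervals as error bars. Histone bars for coding sequence stand at 80%, 87.5% and 88.2% in galactose, low and normal glucose, with other coding genes at 36.7%, 45.5% and 54.3%.

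Histone peaks lay nearest to the 5' end of the mRNA in galactose and farthest in normal glucose. The median distance of the middle from the mRNA 5' end was 80 nt in galactose (8 to 256), 114 nt in low glucose (7 to 220) and 232 nt in normal glucose (1 to 433), with wide overlap between lists. A middle before the mRNA was counted at base 1, in all groups of genes. This gave the 1 in normal glucose, from the H2AC11 peak with its middle 3 nt before the gene. Within 100 nt of the 5' end lay 3 of 5, 4 of 8 and 3 of 17 of the histone peaks. The bases before the start codon were touched by 3 of 5 galactose peaks, 5 of 8 low glucose peaks and 3 of 17 normal glucose peaks. The same order held in other coding genes, with medians of 95.5, 162 and 388 nt and 52.3%, 32.8% and 21.6% of peaks within 100 nt, and in ribosomal protein genes, with medians of 77, 112 and 193 nt. The order was therefore not particular to histones. The G+C content of histone peaks differed little between the lists, with medians of 61.4%, 64% and 61%, while that of other coding exonic peaks was 70%, 69.3% and 59.8%.

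**Figure D4:**
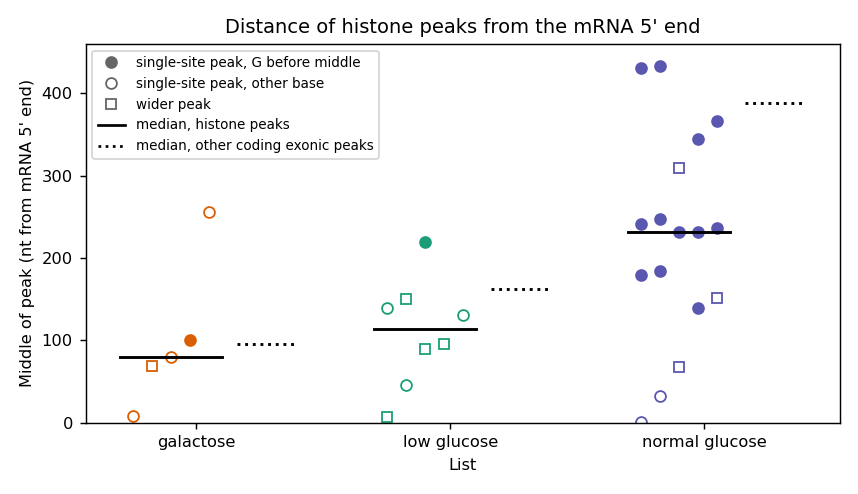
Distance of the middle of each histone peak from the 5' end of its mRNA (y axis, nt) in each list (x axis). Solid lines are histone medians (80, 114 and 232 nt), dotted lines those of exonic peaks of other coding genes, filled circles are single-site peaks with a G before the middle, open circles those with another base and squares are peaks of other widths.

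Sites in normal glucose with a G before the middle are shown for 1 gene of each histone type, as the 21 bases around the middle with the middle and the base before it in capitals. These are H3C3 (chr6:26045614-26045634), H2BC4 (chr6:26123680-26123700), the first H1-4 site (chr6:26156550-26156570), H2AC16 (chr6:27865553-27865573) and H4C13 (chr6:27873385-27873405). The H2BC6 (chr6:26183782-26183802) and H2AC11 (chr6:27133030-27133050) windows follow as the single-site peaks of this list without the G.
H3C3: ccagcgcctGGtgcgagaaat
H2BC4: gacatatttGAgcgcatcgcg
H1-4: cgcagcggcGTatctttggcc
H2AC16: gcgggcaacGCcgcccgcgac
H4C13: cgacgcctgGCacggcgtgga
H2BC6: acagcaaagATagcatgcctg
H2AC11: tcccgttcaCTttgtggttgc
The first 5 were chosen for their G, whereas H2BC6 has an A and H2AC11 a C. Both of the latter lie at the 5' end of the gene. In the other lists, single-site peaks without the G lay at the 5' end, as in H3-3A in galactose, but also farther inside. Such middles were in codon 37 of H2AC11 and codon 36 of H3C10 in low glucose, and codon 74 of H3C4 in galactose.

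No histone gene was in all 3 lists. In 15 of the 21 genes the peaks were in 1 list and in 6 they were in 2, namely H1-2, H3-3A and H3C4 in galactose and low glucose, and H1-4, H2AC11 and H3C10 in low and normal glucose. By position, the peaks formed 26 regions, of which 4 were met by more than 1 list (15.4%, 4.36 to 34.9), those on H1-2, H3-3A and H3C4 in galactose and low glucose and that on H3C10 in low and normal glucose. Of all 538 coding genes with a peak outside the histones, 372 (69.1%, 65.1 to 73) were in 1 list and 72 in all 3, so the share in 1 list was close to that of the histones (71.4%, 47.8 to 88.7). No histone gene had peaks in both galactose and normal glucose, or 0 of 4 and 0 of 15, which allow shares of up to 60.2% and 21.8%. Among those 538 genes, 93 had peaks in both, which is 43.3% of those in galactose and 35.6% of those in normal glucose. Exonic regions were met by more than 1 list in 23 of 101 cases in ribosomal protein genes (22.8%, 15 to 32.2), and in 41 of 271 in other coding genes (15.1%, 11.1 to 20), 5 of them in all 3 lists. The wide interval of the histone regions covers both of these shares.

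Histone genes of a type are near copies of each other, which bears on which gene a peak is given. In 14 of the 30 peaks no 30-mer occurred elsewhere in the genome, and these were 4 of 5 galactose peaks, 5 of 8 low glucose peaks and 5 of 17 normal glucose peaks. More than 50% of the 30-mers occurred elsewhere in 4 peaks, all in normal glucose: H3C13 (83.2%), H2BC10 (62.5%) and both on H2BC15 (61.1% and 52.8%). Of the 131 30-mers of the H3C13 peak, 101 are also in H3-7 and 55 in each of H3C14 and H3C15. A gene without a histone symbol holds 76 of them. Of the 72 in the first H2BC15 peak, 44 are also in H2BC13. Counted over the 30-mers that span the middle, 19 of 30 peaks had no copy elsewhere and 5 had copies for more than 50% of them, namely H3C13, H2BC10, H2AC16 and both on H2BC15. Without the 4 recurrent peaks, normal glucose held 13 peaks in 12 histone genes, still more than the other lists. The named gene is uncertain for those 4 peaks and, over its middle, for H2AC16 (28 of 30 30-mers recurrent). For the 4 peaks the histone type is H3 or H2B for each copy named here.

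**Figure D5:**
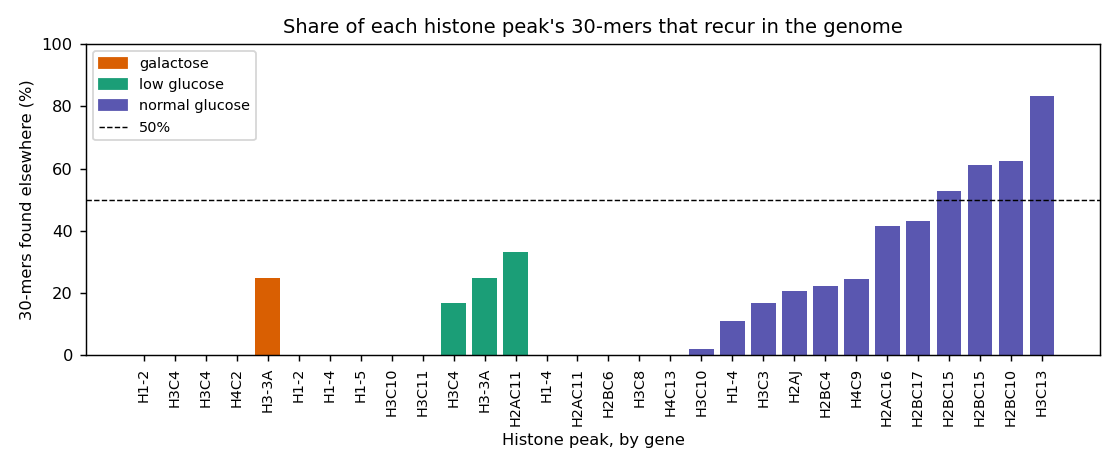
Share of the 30-mers of each histone peak that occur elsewhere in hg38 (y axis, %), for the 30 peaks by gene (x axis) and list, with a dashed line at 50%. The 4 peaks above the line are all from normal glucose (H2BC15, with 2 peaks, H2BC10 and H3C13).

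Genes linked to the making, carrying and depositing of histones were looked up in the same lists. The 43 genes were those for histone mRNA processing and decay, chaperones and importins, with the histone variants MACROH2A1, MACROH2A2 and CENPA. RNU7-1 among them is non-coding. Of the 43, the galactose and normal glucose lists met 1 each and the low glucose list 0. These counts are near the shares of all coding genes with a peak in those lists (1.10%, 1.38% and 1.54%). IPO5, an importin, had a peak in its 5'UTR in galactose (chr13:97976611-97976711). NCL, the nucleolar protein nucleolin, had one in coding sequence in normal glucose (chr2:231457745-231457845). SLBP, the protein that binds the histone stem-loop, had none.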

How the data were processed

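CLIP-seq of GAPDH was done in 6 samples of MOLM-13 cells, 2 for each sugar condition. Per the submitters' processing notes and the study's methods, the authors trimmed reads with cutadapt, aligned them with STAR to hg38 (GRCh38), called crosslink sites with PureCLIP, merged nearby sites, extended single sites up to 50 nt and joined both samples. Versions are not given in the sources used here. The deposited positions (chromosome, start, end, gene identifier and symbol) carry no count, score or strand, so the joining and the calling threshold decide what could appear.

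Positions were read as 1-based with both ends included. All 30 histone rows matched GENCODE 44 by identifier and symbol and overlapped that gene, which gave the strand. The place of a peak's middle was taken over all protein-coding transcripts of the gene. Coding sequence came before 5'UTR, 3'UTR and intron, and a middle beyond the gene took the place at that end. Codons, mRNA distances, exon numbers and stem-loop windows were taken from the canonical transcript alone. For distances, a middle beyond that transcript was counted at its end. Recurrent peaks are those in which over 50% of all 30-nt words (30-mers) have another copy in hg38 on either strand. Peaks with at least 1 nt in common formed a region. Intervals are exact Clopper-Pearson 95% intervals (scipy 1.17.1), and no test was run. Every histone gene with a peak was named. The members and lists were chosen with earlier results of these data known. The placing of peaks was tested on simulated data.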

Additional observations from a re-analysis of the deposited data

How the results depend on the processing

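Each count was repeated with other settings: without recurrent peaks, without peaks annotated to more than 1 gene, without single-site peaks with a G before the middle, with a wider list of histone names, and with other rules for places, overlaps and the stem-loop. Of 45 alternatives, 42 left the value within the range set for it, which for counts was 1.5-fold, and 3 did not. Among the 42, the share of single-site histone peaks with a G before the middle fell from 63.6% to 54.5% with the start counted from 0. Over peaks of all widths it was 46.7%. Without single-site peaks with a G before the middle, normal glucose held 5 histone peaks in 5 genes instead of 17 in 15, and the cause was not tested. Without peaks annotated to more than 1 gene, galactose held 3 histone peaks instead of 5, since both H3C4 peaks there lie in a read-through gene as well. The share of middles in coding sequence ran from 75% to 86.7%. Regions met by more than 1 list numbered 3 with an overlap of at least 50% of both peaks and 6 with peaks within 50 nt joined. No paired analysis was possible because the authors joined the 2 samples of each condition before deposit, although the labels number them 1 and 2 in every group. For the same reason no sample could be left out. Depth limits the lists in an unknown way, since positions carry no read number, and a gene absent from a list may have been under the threshold of the peak caller.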
